A study of Homo sapiens with 8 samples.

Results

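The transcripts of 10 telomerase and shelterin genes were examined in RNA-seq libraries of cells labelled A549, a human lung adenocarcinoma line, that carried either an empty lentiviral vector (EV group, 4 libraries) or a lentivirus for KRT19, the gene of the intermediate filament protein keratin 19 (KRT19 group, 4 libraries). The genes were chosen by name, and all 10 were found among the 58735 genes of the count table. Per the study's methods, KRT19 carried a Flag tag and transduced cells of both kinds were kept under puromycin to obtain stable lines, so each group is a selected line. Nothing states that replicates came from separate cultures, and p-values therefore measure the spread between these libraries, which may be technical. Total counts ranged from 14073065 to 17054364 per library.

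Group labels and cell identity were checked first. KRT19 had 1 to 5 counts in EV libraries and 4353 to 5147 in KRT19 libraries. Of 14 transcripts that A549 cells are known for, 8 were expressed at a testable level. KRT8, KRT18, NQO1 and TXNRD1 were abundant, at 189.3 CPM (counts scaled to library size, per 1e+06) or more, whereas KRT7, AKR1C1 and AKR1C2 reached at most 4.28, 1.29 and 2.75 CPM. The other 6, EPCAM, CDH1, AKR1B10, AKR1C3, ALDH1A1 and ALDH3A1, were too low to test, with at most 14 counts in any library. CDKN2A, CDKN2B and MTAP lie in a region that is deleted in A549, yet held 1328 to 1824, 466 to 659 and 653 to 870 counts per library. The data therefore go against the A549 label at that region and for these 6 transcripts, with KRT7, AKR1C1 and AKR1C2 also low. The cells are called by their group names here. The extraction label names retina. Summed over 10 retinal markers, the level was 2.28 to 3.50 CPM in all libraries, with RCVRN and SAG at 0 counts and OPN1SW and NRL the highest, at 22 to 30 and 9 to 24 counts. Summed fibroblast and leukocyte markers reached at most 3.98 and 0.724 CPM. KRT19 replicate 3 stood apart from its group: chi-square per degree of freedom over genes was 7.14 to 12.4 in its pairs with the other KRT19 libraries and 2.67 to 3.54 among those. Among EV libraries it was 2.97 to 6.02, highest for replicates 1 and 3.

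Telomeres are the repeated DNA ends of chromosomes. Telomerase extends them by copying a short template carried by its RNA subunit, TERC, with the reverse transcriptase TERT, and WRAP53 encodes TCAB1, the protein that brings the enzyme to Cajal bodies and telomeres. Shelterin is the protein complex that coats the repeats and hides them from DNA repair. TERF1 and TERF2 bind the double-stranded repeat, POT1 binds the single-stranded overhang, ACD encodes TPP1, which partners POT1 and recruits telomerase, TINF2 encodes TIN2, the bridge between these proteins, and TERF2IP encodes RAP1, a partner of TERF2. RTEL1 is a helicase that unwinds the telomeric loop. Most somatic cells silence TERT, while most carcinomas express it.

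The RNA template of telomerase shows how much of these genes the counts can see. TERC is a gene of 541 bases in GENCODE 29, at chr3:169764520-169765060 of GRCh38, read from the minus strand. Its bases 1 to 120, at chr3:169764941-169765060, are printed with the template in capitals, bases 46 to 56, which is the sequence that telomerase reverse-transcribes into repeats.

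TERC bases 1 to 120: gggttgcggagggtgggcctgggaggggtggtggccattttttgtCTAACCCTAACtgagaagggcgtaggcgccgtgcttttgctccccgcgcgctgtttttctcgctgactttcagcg

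A second annotated gene, RF00024, covers bases 14 to 451 of TERC on the same strand, template included, so that 438 of its 541 bases (81.0%) belong to both. Most of what is left to TERC alone is the stretch downstream of that copy, 90 bases at chr3:169764520-169764609.

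TERC bases 452 to 541: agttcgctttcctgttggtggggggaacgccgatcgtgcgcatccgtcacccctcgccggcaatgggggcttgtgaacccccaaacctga

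Whether shared bases were counted could be read from the table itself. In the annotation, 399 genes lie wholly within the exons of a single gene on the same strand that had at least 1000 counts, and 369 lie wholly within those of such a gene on the opposite strand. All 399 and all 369 had 0 counts in all 8 libraries. Bases annotated to a second gene on either strand were thus not credited to the inner gene in any of these cases. TERC had 2, 0, 1 and 2 counts in EV replicates 1 to 4 and 2, 1, 0 and 0 in KRT19 replicates 1 to 4, and RF00024 had 0 in every library. A count of 0 allows up to 3 counts, or 0.176 to 0.213 CPM, and covers counting error only. No fold change is given for TERC, because all 8 libraries were at or under that floor and 103 bases were its own. If shared bases went uncounted here too, the counts came from those bases, mostly downstream of RF00024. The level of TERC over the stretch shared with RF00024, template included, was then not measured.

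RTEL1 was the other member largely shared. Of its 6440 exon bases, 4522 (70.2%) are also exons of the readthrough gene RTEL1-TNFRSF6B on the same strand. For the remaining 8 members, 0% to 7.84% of exon bases were shared. Sharing was 0% for TERT, TERF1 and TINF2, and it was largest for WRAP53, at 399 of 5087 bases, all with the opposite strand. TERF2IP shared 176 of 3379 bases with KARS, on the opposite strand.

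**Figure D1:**
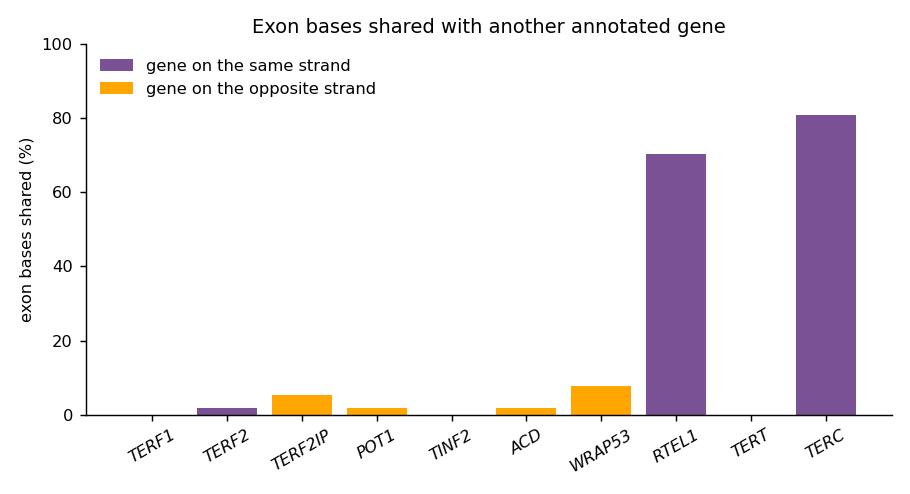
Percent of each member's exon bases (GENCODE 29, vertical axis) that also belong to an exon of another annotated gene, by strand. RTEL1 (70.2%) and TERC (81.0%) stand far above the other 8 members, at 7.84% or less.

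Sequence repeated elsewhere in the transcriptome was small for the other members. The percent of a gene's 75-base words that occur in a transcript of another gene was 63.1% for RTEL1 and 77.9% for TERC. TERF1, which has processed pseudogenes, reached 4.65%, most of it in TERF1P5, which had 0 to 3 counts per library. WRAP53 and TERF2IP reached 3.20% and 3.02%, and TERT, TERF2, POT1, TINF2 and ACD stayed at or under 0.645%.

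Levels were then set in order per length, as TPM (counts divided by exon length, then scaled to the same sum in every library). TERF2IP was the most abundant member, at 75.6 ± 3.45 TPM (SD, n = 8). WRAP53 and ACD followed at 41.5 ± 2.38 and 41.5 ± 3.47 TPM. TINF2 was at 35.6 ± 2.52, TERF2 at 27.5 ± 1.38, TERF1 at 16.98 ± 1.82 and POT1 at 15.7 ± 1.43 TPM. RTEL1 and TERT lay far below, at 0.933 ± 0.232 and 0.788 ± 0.191 TPM, and TERC, at or under the floor of 3 counts in all 8 libraries, was at 0.419 ± 0.384 TPM, from 0 to 0.903.

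Neighbours in this order were compared within each library (exact sign-flip permutation test over 8 libraries, two-sided, adjusted over 8 pairs, smallest unadjusted p 0.00781). TERF2IP exceeded WRAP53 1.83-fold in 8 of 8 libraries (exact test, adjusted p = 0.0156). TERF2 exceeded TERF1 1.62-fold in 8 of 8 (exact test, adjusted p = 0.0156), and POT1 exceeded RTEL1 17.3-fold in 8 of 8 (exact test, adjusted p = 0.0156). ACD over TINF2 (1.16-fold, 7 of 8 libraries, exact test, adjusted p = 0.0250), TINF2 over TERF2 (1.296-fold, 8 of 8, 0.0156) and TERF1 over POT1 (1.08-fold, 6 of 8, 0.0417) also passed. WRAP53 and ACD were not told apart (ratio 1.00, WRAP53 higher in 3 of 8 libraries, exact test, adjusted p = 0.938), nor were RTEL1 and TERT (1.18-fold, 6 of 8, exact test, adjusted p = 0.277).

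The middle of the order turned on the length used. With the longest transcript as the length, TERF2 stood at 37.5 TPM, above TINF2 at 32.3 TPM, and TERF1 at 30.3 TPM was 1.84-fold above POT1 (exact test, adjusted p = 0.0156). When only unshared exon bases were taken as the length, a choice made after seeing the data, RTEL1 stood at 3.13 TPM, 3.95-fold above TERT in 8 of 8 libraries (exact test, adjusted p = 0.00893), and POT1 exceeded it 5.25-fold in place of 17.3-fold. TERC then stood at 2.20 ± 2.02 TPM, from 0 to 4.74, but its counts were at or under the floor in all 8 libraries, so its place in the order is not given with any length. With that length WRAP53 exceeded ACD 1.07-fold in 8 of 8 (exact test, adjusted p = 0.00893), and TERF1 over POT1 no longer passed (1.06-fold, exact test, adjusted p = 0.0859). The places of TERF2IP at the top and of TERT under the shelterin genes were the same with all 3 lengths.

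The EV and KRT19 groups were compared in edgeR's quasi-likelihood test over 14621 expressed genes, which took in 9 of the 10 members (TERC had too few counts). None of the 9 passed an adjusted p of 0.05 or an unadjusted p of 0.05, and in none were the groups free of overlap. Over all genes, 0.00684% passed the adjusted threshold (KRT19 itself), 5.41% had an unadjusted p under 0.05, and groups did not overlap for 3.44%. The adjusted p of the 9 members lay between 0.906 and 0.994 (edgeR). Their median log2 fold change was 0.0035, against 0.0051 over all genes tested. In bulk libraries, fewer cells with a transcript and less of it per cell cannot be told apart.

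**Figure D2:**
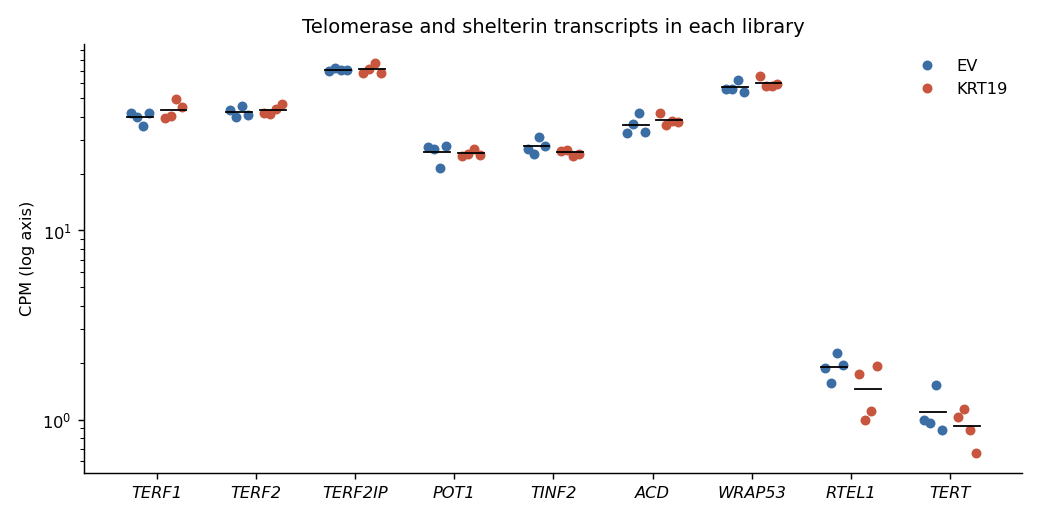
CPM (vertical log axis) of 9 members in each EV (blue) and KRT19 (red) library, with the group mean as a bar. The groups overlap for every member, and RTEL1 and TERT lie at 0.662 to 2.25 CPM, below the other 7.

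Of the double-strand binders, TERF1 (ENSG00000147601, plus strand of chromosome 8, 73008864 to 73048122) was at 42.0, 39.8, 35.7 and 41.9 CPM in EV replicates 1 to 4 and at 39.2, 40.4, 49.8 and 44.9 CPM in KRT19 replicates 1 to 4. The lowest value was EV replicate 3 and the highest KRT19 replicate 3, and the other 6 lay between 39.2 and 44.9 CPM. This gave a log2 fold change of 0.13 ± 0.078 (SE) and a 95% interval of -0.036 to 0.30 (edgeR, adjusted p = 0.906). It was 0.057 without KRT19 replicate 3, and 0.18 at an unadjusted p of 0.0370 and an adjusted p of 0.574 without KRT19 replicate 1 (edgeR). TERF2 (ENSG00000132604, minus strand of chromosome 16, 69355561 to 69408571) was at 43.1, 40.0, 45.8 and 40.8 CPM with the empty vector and 42.0, 41.5, 43.8 and 46.7 CPM with KRT19, overlapping throughout. Its log2 fold change was 0.036 ± 0.063 (SE), with an interval of -0.098 to 0.17 (edgeR, adjusted p = 0.962), and it ranged from 0.00082 without KRT19 replicate 4 to 0.074 without EV replicate 3.

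TERF2IP (ENSG00000166848, plus strand of chromosome 16, 75647786 to 75761872) was the steadiest member in the EV group, at 70.0, 72.4, 70.9 and 70.7 CPM. The KRT19 libraries were at 68.4, 71.5, 76.5 and 68.4 CPM and enclosed the EV values. This gave a log2 fold change of 0.0035 ± 0.055 (SE) and an interval of -0.11 to 0.12 (edgeR, adjusted p = 0.994). The interval corresponds to folds from 0.925 to 1.09.

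POT1 (ENSG00000128513, minus strand of chromosome 7, 124822386 to 124929983) was at 27.5, 27.0, 21.4 and 28.0 CPM in EV libraries and at 24.7, 25.5, 26.8 and 25.1 CPM in KRT19 libraries. Apart from EV replicate 3, the lowest of all 8, every EV library was above every KRT19 library. This gave a log2 fold change of -0.023 ± 0.082 (SE) and an interval of -0.20 to 0.15 (edgeR, adjusted p = 0.978). It was -0.11 without EV replicate 3, at an unadjusted p of 0.145 (edgeR), and 0.0051 and 0.016 without EV replicates 1 and 4. Its partner ACD (ENSG00000102977, minus strand of chromosome 16, 67657512 to 67660815) deviated the other way in that library, at 32.7, 36.5, 41.9 and 33.0 CPM with the empty vector and 41.7, 36.3, 37.9 and 37.6 CPM with KRT19. Its log2 fold change was 0.092 ± 0.079 (SE), with an interval of -0.074 to 0.26 (edgeR, adjusted p = 0.922). Without EV replicate 3 it was 0.17, at an unadjusted p of 0.0266 and an adjusted p of 0.997 (edgeR), whereas it was 0.049 without EV replicate 1, 0.052 without EV replicate 4 and 0.049 without KRT19 replicate 1.

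TINF2 (ENSG00000092330, minus strand of chromosome 14, 24239643 to 24242674) was at 26.9, 25.5, 31.2 and 28.1 CPM with the empty vector and 26.4, 26.8, 24.7 and 25.5 CPM with KRT19. EV replicate 3 was again the highest, and the remaining values lay within a narrow band. This gave a log2 fold change of -0.11 ± 0.072 (SE) and an interval of -0.26 to 0.041 (edgeR, adjusted p = 0.906), and it was -0.053 without EV replicate 3.

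The catalytic subunit TERT (ENSG00000164362, minus strand of chromosome 5, 1253147 to 1295069) was detected in every library, although with few reads. It held 15, 16, 25 and 15 counts in EV replicates 1 to 4 and 17, 16, 15 and 10 counts in KRT19 replicates 1 to 4. Apart from the highest and the lowest library, all values lay between 15 and 17 counts. Mean TERT levels were 1.09 ± 0.291 CPM (EV) and 0.926 ± 0.206 CPM (KRT19), each with the SD over 4 libraries. TERT gave a log2 fold change of -0.24 ± 0.28 (SE), whose interval of -0.83 to 0.35 (edgeR, adjusted p = 0.946) spans folds from 0.563 to 1.28. Differences within that interval are not excluded at this depth. The TERT log2 fold change was -0.035 without EV replicate 3 and -0.11 without KRT19 replicate 4.

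WRAP53 (ENSG00000141499, plus strand of chromosome 17, 7686071 to 7703502) was at 55.8, 56.3, 62.7 and 53.9 CPM with the empty vector and 65.5, 58.5, 57.9 and 59.3 CPM with KRT19. KRT19 replicate 1 and EV replicate 3 were the highest, and the fitted log2 fold change, 0.076 ± 0.063 (SE), had an interval of -0.057 to 0.21 (edgeR, adjusted p = 0.920). It was 0.033 without KRT19 replicate 1, 0.048 without EV replicate 4 and 0.12 without EV replicate 3. RTEL1 (ENSG00000258366, plus strand of chromosome 20, 63657810 to 63696253) had 28, 26, 37 and 33 counts in EV and 29, 14, 19 and 29 counts in KRT19 libraries. KRT19 replicates 2 and 3 were below all EV libraries, whereas replicates 1 and 4 were within the EV range. In the main fit its log2 fold change of -0.40 ± 0.24 (SE) was the largest among the 9 members in either direction, with an interval of -0.91 to 0.12 (edgeR, adjusted p = 0.906). It was -0.55 without KRT19 replicate 4, at an unadjusted p of 0.0513 (edgeR), and -0.50 without KRT19 replicate 1. Without KRT19 replicate 2 it was -0.265, smaller in size than that of TERT, at -0.34. RTEL1-TNFRSF6B had 16, 19, 21 and 21 counts in EV and 14, 11, 28 and 22 in KRT19 libraries. With those counts added to RTEL1, also a choice made after seeing the data, the log2 fold change was -0.23 ± 0.19 (SE), at an unadjusted p of 0.247 (edgeR). Bases that both genes share may be missing from either count, so this sum is not a level of RTEL1.

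**Figure D3:**
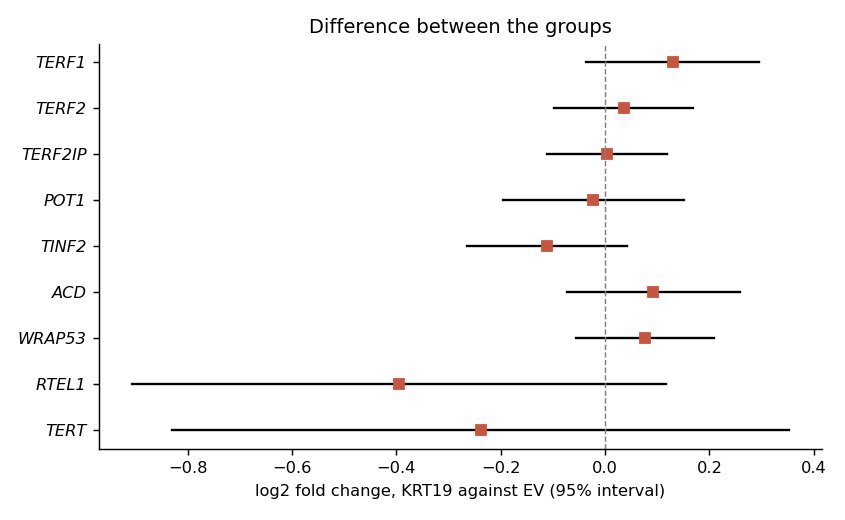
Log2 fold change of KRT19 against EV libraries (squares, horizontal axis) with the 95% interval of edgeR's quasi-likelihood fit (lines) for 9 members. All 9 intervals include 0, and those of RTEL1 (-0.91 to 0.12) and TERT (-0.83 to 0.35), the members with the fewest reads, are the widest.

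The exact permutation test over library labels gave p between 0.143 (TINF2) and 1.00 (TERF2IP) for the 9 members, where 4 against 4 libraries allow a smallest p of 0.0286 (two-sided). The composition of shelterin was also compared, as each gene's share of the summed TPM of the 6 subunits, which needs no library size. Values are given for EV, then KRT19, with the SD over 4 libraries. TERF2IP made up 35.7% ± 1.04 and 35.4% ± 1.28. ACD made up 18.9% ± 1.76 and 20.02% ± 1.301, TINF2 17.4% ± 1.12 and 16.0% ± 0.910, and TERF2 12.8% ± 0.552 and 13% ± 0.719. TERF1 was at 7.67% ± 0.748 and 8.28% ± 0.760 and POT1 at 7.49% ± 1.06 and 7.28% ± 0.143. The log2 ratio of TERF2 to TERF1 was 0.74 ± 0.18 and 0.65 ± 0.13. None of these 7 quantities passed the test (exact permutation test, adjusted p from 0.800 to 0.914). The POT1 share was 5.91% in EV replicate 3 against 7.84% to 8.15% in the other EV libraries. Without it, the difference was -0.74 percentage points and the groups did not overlap (exact permutation p = 0.0286, the smallest that 3 against 4 libraries allow). That p was not adjusted over the 7 quantities or over the choice of library. The remaining EV libraries already lay above the KRT19 libraries, at 7.09% to 7.40%, so leaving this library out fixed the p.

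EV replicate 3 was the highest EV library for 6 of the 9 members and the lowest for 2, against 3 or 4 extremes in each of the other EV libraries. Its deviations from the EV mean tracked base composition. POT1 and TERF1, whose longest transcripts have a GC content of 37.6% and 45.2%, deviated by -0.27 and -0.15 on the log2 scale. TERT, RTEL1 and ACD, at 65.7%, 62.5% and 61.8% GC, deviated by 0.46, 0.24 and 0.23.

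**Figure D4:**
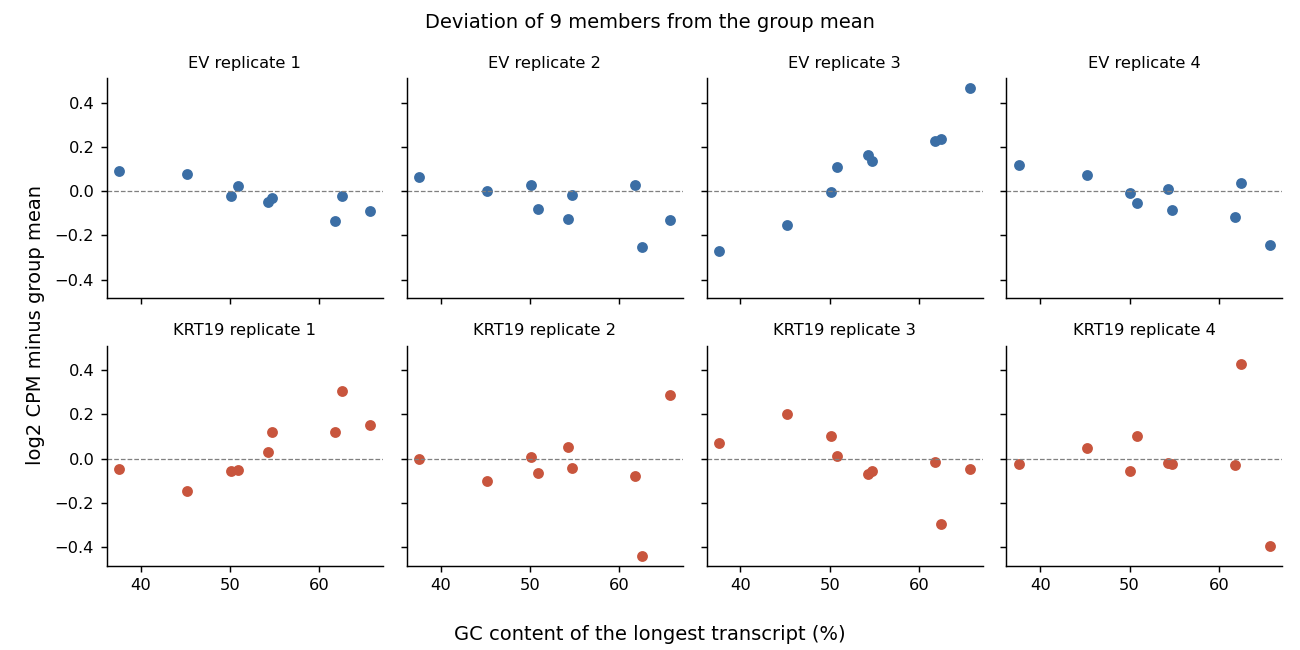
Deviation of each member's log2 CPM from its group mean (vertical axis) against the GC content of its longest transcript (horizontal axis), 1 panel per library. In EV replicate 3 the 9 points climb from -0.27 (POT1, 37.6% GC) to 0.46 (TERT, 65.7% GC).

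Pearson's r between deviation and GC content over the 9 members was -0.86, -0.63, 0.96 and -0.77 in EV replicates 1 to 4 and 0.81, -0.0037, -0.67 and -0.091 in KRT19 replicates 1 to 4. Over 14614 expressed genes with a GC value it was -0.21, -0.14, 0.32 and 0.019 in the EV libraries and 0.31, -0.0071, -0.37 and 0.098 in the KRT19 libraries. EV replicate 4 thus had a strong value over the members and almost none over all genes. The points share a library, and deviations sum to 0 over each group, so these values only describe. With the GC trend of each library removed, a step chosen after these values were seen, the deviation of POT1 in EV replicate 3 was -0.16 and that of TERT 0.40. After this step 0 members passed either threshold, and log2 fold changes were 0.13 for TERF1, 0.11 for ACD, 0.095 for WRAP53 and -0.071 for POT1. The part of base composition in the differences between groups was not otherwise tested.

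Over 36 pairs of members, the median Pearson's r of the deviations from group means was 0.034. The extremes were ACD with WRAP53 (0.91) and POT1 with ACD (-0.86), the pair that forms a heterodimer on the overhang. The 3 genes most like TERT over the 8 libraries were MOB3C (r = 0.98), HMCES (0.96) and TMEM25 (0.95), and 35 genes exceeded 0.9. For the mean of the 6 shelterin genes they were UBE2G2 (0.99), NOP56 (0.99) and E2F2 (0.99), and 68 genes exceeded 0.9. With 8 libraries and 14621 genes such values are a description only.

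The rest of the telomere pathway was examined through 82 genes in 5 lists, of which 81 were expressed. TEN1, the smallest subunit of the CST complex, had at most 3 counts. None of the 81 passed the adjusted threshold in edgeR (smallest adjusted p = 0.869; 0.00684% of all genes passed). At an unadjusted p under 0.05, 6 of 81 genes (7.41%) were higher in KRT19 libraries and 0 were lower, against 2.85% higher and 2.56% lower of all genes. The median log2 fold change of the 81 was 0.033, with 53 positive and 28 negative values, beside 0.0051 and 52.2% positive over all genes. The count of 6 was 10 without EV replicate 2, 3 without EV replicate 3, 3 without EV replicate 4 and 5 without KRT19 replicate 3. It was 2 with the replicate number as a block, 11 in limma-voom with sample quality weights and 11 with the GC trend removed. Over all 14621 genes these block, limma-voom and GC fits had 451, 1337 and 1160 genes at that level, in place of 791, so those counts shifted in the same direction. With the libraries above left out, in the same order, the count over all genes was 755, 636, 620 and 791. Without EV replicate 2 the list count thus rose while that over all genes fell.

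**Figure D5:**
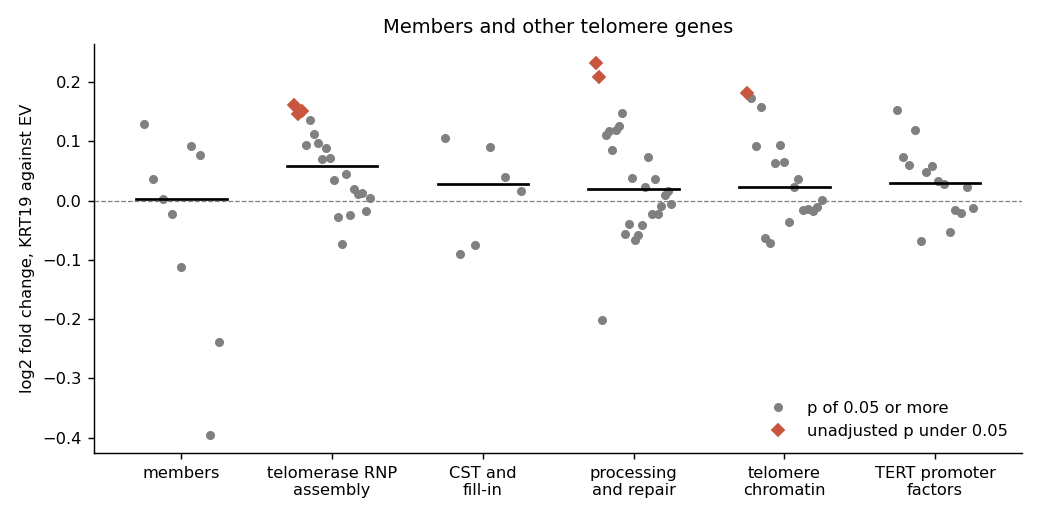
Log2 fold change of KRT19 against EV libraries (vertical axis) for 9 members and 81 other telomere genes in 5 lists, with list medians as bars. The 6 diamonds (unadjusted p under 0.05) are all above 0, and the medians of all 6 columns lie between 0.0035 and 0.058.

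Among 20 genes that build and mature the telomerase ribonucleoprotein, 3 were higher at an unadjusted p under 0.05 (15%, against 2.85% of all genes higher and 5.41% in either direction) and the median log2 fold change was 0.058. The count was 5 without EV replicate 2, 1 without EV replicate 4, 1 without KRT19 replicate 2 and 0 with the replicate number as a block, in fits that had 755, 620, 795 and 451 of all genes at that level. NVL, an ATPase of ribosome and telomerase assembly, was at 22.7, 23.3, 22.6 and 21.9 CPM with the empty vector and 24.2, 27.1, 25.8 and 24.1 CPM with KRT19, with no overlap (log2 fold change 0.16 ± 0.068, SE, unadjusted p = 0.0294, adjusted p = 0.906, edgeR). MTREX, the helicase of the nuclear exosome that trims RNA precursors, differed by 0.15 ± 0.062 (unadjusted p = 0.0299 by edgeR), also without overlap. TGS1, which hypermethylates the cap of TERC, differed by 0.15 ± 0.068 (unadjusted p = 0.0411 by edgeR), with overlapping groups.

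In the list of telomere processing and repair, 2 of 24 genes were higher at an unadjusted p under 0.05 (8.33%, against the same 2.85% and 5.41%) and the median was 0.019. The count was 1 without EV replicate 3, 3 without EV replicate 1, EV replicate 2, KRT19 replicate 1 or KRT19 replicate 2, and 4 in limma-voom with sample quality weights. BLM, the Bloom syndrome helicase, was at 29.2, 30.3, 25.8 and 28.4 CPM with the empty vector and 30.3, 32.6, 37.5 and 33.1 CPM with KRT19. The KRT19 libraries lay above the EV libraries, with KRT19 replicate 1 barely so (log2 fold change 0.23 ± 0.075, SE, unadjusted p = 0.00651, adjusted p = 0.869, edgeR). RIF1, which restrains end resection, differed by 0.21 ± 0.080 (unadjusted p = 0.0187 by edgeR) and was at 172 CPM in KRT19 replicate 3 against 128 to 139 CPM in the other KRT19 libraries. HMBOX1, a telomere repeat binder, had -0.20 ± 0.11 (unadjusted p = 0.0787 by edgeR).

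Of 17 genes of telomeric chromatin, RAD51AP1, a recombination factor, was the 1 gene with an unadjusted p under 0.05, at 0.18 ± 0.085 (unadjusted p = 0.0476 by edgeR), which is 5.88% of the list against the same 2.85% and 5.41%. RAD51AP1 was highest in KRT19 replicate 3, at 76.8 CPM against 55.1 to 63.4 CPM in the other KRT19 libraries. The count was 0 without that library, and also without EV replicate 1, EV replicate 3, EV replicate 4 or KRT19 replicate 4. It ranged from 0 to 3 over the libraries left out (3 without KRT19 replicate 1). With the replicate number as a block it was 0, and with the GC trend removed it was 3. CBX3 (0.17 ± 0.091, unadjusted p = 0.0725 by edgeR) and CBX1 (0.092 ± 0.051, unadjusted p = 0.0897 by edgeR), which encode heterochromatin proteins, followed. CBX3 was at 195.4 CPM in KRT19 replicate 3 against 133.2 to 147.5 CPM in the other KRT19 libraries and 125.6 to 143.6 CPM in EV libraries. Of 6 expressed genes of CST and the polymerase that fills in the opposite strand, 0 had an unadjusted p under 0.05, and 1 did without EV replicate 1, without EV replicate 2 and in limma-voom with sample quality weights. The lowest p was that of POLA1, the catalytic subunit of that polymerase (0.11 ± 0.070, unadjusted p = 0.145 by edgeR), followed by CTC1 (-0.090 ± 0.071) and STN1 (-0.075 ± 0.060), both CST subunits.

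Of 14 factors known to act on the TERT promoter, 0 had an unadjusted p under 0.05, against 5.41% of all genes, and the median log2 fold change was 0.031. The count was 1 without KRT19 replicate 1, without KRT19 replicate 3, in limma-voom with sample quality weights and with the GC trend removed. The lowest p belonged to WT1 (0.15 ± 0.10, unadjusted p = 0.154 by edgeR), a repressor of TERT, MYC (0.074 ± 0.051, unadjusted p = 0.161 by edgeR), an activator, and CTNNB1 (0.060 ± 0.044, unadjusted p = 0.191 by edgeR), which encodes beta-catenin. MYC was at 126.9, 124.4, 122.8 and 119.8 CPM in EV replicates and at 122.6 to 137.1 CPM in KRT19 replicates, so the groups overlapped. CTNNB1 was at 290.8 to 302.4 CPM in EV replicates and 304.7 to 324.1 CPM in KRT19 replicates, without overlap (3.44% of all genes did not overlap).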

How the data were processed

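Counts of reads per gene in 8 libraries, not normalized, were deposited by the authors as 1 table. The processing notes name Bowtie 0.12.2, featureCounts 1.5.0-p3, DESeq2 and hg38 with no role or order, and the setting for strand was not given in the sources used here. All 58735 genes had the coordinates of GENCODE 29, and the deposited gene length was the union of its exons. Genes were filtered with filterByExpr (14621 kept, at least 99.84% of counts), scaled by TMM and fitted with edgeR 4.0.16 (glmQLFit, group as the only term) in R 4.3.3, with Benjamini-Hochberg adjustment over all genes and limma 3.58.1 and DESeq2 1.42.0 as alternatives. The SE was derived from the fold change and the F statistic, and log2 CPM used a prior count of 2. Single values were compared by exact permutation. Same-group libraries differed beyond sampling noise (chi-square per degree of freedom 2.67 to 12.4, highest for KRT19 replicate 3). The procedures were tested on simulated data. Members and lists were chosen with earlier results of these data known. List genes are named by the 3 smallest p-values per list. Sequences are from GENCODE 29 transcripts.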

Additional observations from a re-analysis of the deposited data

Results flagged for a closer look

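Over 32 groups of 4 libraries (9 members and 7 ratios or shares, in both groups), a library was singled out where its distance from its nearest neighbour took up more of the group's spread than Dixon's 95% critical value allows. There were 3 such cases, and chance gives about 1 in 20 groups, or 1.6. For POT1 the EV libraries lay at 4.76 to 4.81 log2 CPM except replicate 3, at 4.43 (0.864 of the spread). Its share of shelterin TPM was 7.84% to 8.15% in EV libraries except replicate 3, at 5.91% (0.863). Both values come from the same counts. EV replicate 3 was also the library in which the deviations of members followed GC content most closely (r = 0.96 over 9 members). For TERF2 the share was 12.6% to 12.7% in KRT19 libraries except replicate 4, at 14.1% (0.951). The causes were not tested.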

How the results depend on the processing

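No member passed the adjusted threshold in any of the 16 alternatives. The number of members at an unadjusted p under 0.05 was 0, and leaving out 1 library gave 0 to 1 (ACD without EV replicate 3, TERF1 without KRT19 replicate 1). Over all genes, 1 passed the adjusted threshold. DESeq2's Wald test called 5 and limma-voom with sample quality weights 8, a filter of at least 1 count over all libraries 71, removal of the GC trend 5, and fits with 1 library left out 1 to 5 (3 without EV replicate 1, 5 without KRT19 replicate 3). The 791 genes at an unadjusted p under 0.05 became 1337 with limma-voom and those weights, 1559 under that filter, 451 with the replicate block and 620 to 1228 with 1 library left out (1228 without KRT19 replicate 1). Of the telomere list genes 6 were at that level, 11 with limma-voom and those weights, 2 with the replicate block, 11 with the GC trend removed (when 1160 of all 14621 genes were) and 3 to 10 with 1 library left out. Same-numbered libraries did not deviate together (r of -0.11, -0.024, -0.16 and 0.057), so these values showed no pairing by number. A pairing masked by trends of single libraries, such as that with GC content, was not tested.

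TERF2IP reversed to -0.0086 with upper-quartile factors and -0.026 with limma-voom and quality weights, and to as low as -0.033 with 1 library left out (range -0.033 to 0.023). POT1 ranged from -0.11 to 0.016 with 1 library left out. The difference in share ranged from -0.16 to 0.36 points for TERF2, -0.76 to 0.076 for TERF2IP -0.74 to 0.0092 for POT1, 0.25 (without EV replicate 3) to 0.86 for TERF1, 0.46 (without KRT19 replicate 1) to 1.85 (without EV replicate 3) for ACD and -1.85 to -0.96 for TINF2, and that in the log2 ratio of TERF2 to TERF1 from -0.13 to -0.00038 (without EV replicate 3). Neighbouring pairs told apart by TPM numbered 6, and 4 to 6 with 1 library left out. The fold changes of TERT and RTEL1 have no value under the stricter filter (5 CPM in 4 libraries). TERC had too few counts for a comparison, and most of its bases are shared with RF00024. The cause of these shifts was not tested.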
